A study of Mus musculus with 12 samples.

Results

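The comparison set 3 ipsilateral libraries labelled Astro-KO against 3 ipsilateral libraries labelled wild-type, chosen by their titles from the 12 libraries of the series. Each library is bulk RNA of ACSA-2+ astrocytes from 1 hemisphere of 1 adult mouse brain, taken 24 h after transient middle cerebral artery occlusion (tMCAO), a stroke model in which an artery of 1 hemisphere is blocked and then reopened. All mice were C57BL/6 of postnatal day 90 to 120 and carried 1 copy of Gfap-CreERT2 and floxed alleles of the gene to be deleted. CreERT2 is a recombinase that acts only once tamoxifen is given, and the Gfap promoter drives it in astrocytes and in other cells in which that promoter is active. Corn oil was the agent given to the mice called wild-type here (WT; 296, 297 and 474), which had the same alleles. Tamoxifen was given to mice 295, 298 and 300 (KO). Tamoxifen and the deletion therefore cannot be told apart. The libraries are called KO and WT after their labels, and how far the deletion went is not described here. All 48709 genes of the tables were considered, of which 15571 had enough counts to be tested.

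Astrocytes take up glutamate and potassium, feed neurons with lactate, and wrap brain vessels with endfeet that hold the water channel Aqp4. After a stroke they become reactive, and many of the genes of their resting state fall. Astrocytes also send signals to the vessel wall: Wnt7a and Wnt7b act through Frizzled receptors and β-catenin on brain endothelial cells and are needed there for the blood-brain barrier, and Vegfa drives vessel growth and leak. Notch signalling, in which cleaved receptors join the DNA-binding protein Rbpj to switch on Hes and Hey genes, is known to keep astrocytes in their glial state.

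The 6 libraries held 11187723 to 14310388 counts and 18380 to 19024 genes with a count, so that 3 counts, taken as the floor of detection, equal 0.21 to 0.268 counts per 1000000 counts (CPM). Mitochondrial genes took 1.68% and 1.83% of the counts in the KO libraries of mice 298 and 300, and 0.951 to 1.02% in the other 4. Of the 2 leading principal components (39.97% and 22.02% of the variance), the second set the KO library of mouse 300 (-53.89) apart from the other 5 (-2.835 to 32.55). Mouse 296 had almost no Xist (0.315 CPM), the transcript of the inactive X chromosome, against 873 to 2082 CPM in the other 5 libraries. Its contralateral library held 0.696 CPM. Sex was not a term of the fit, and its part in the differences was not tested. Within the sorted cells the 28 mature astrocyte genes summed to 21252 to 24279 CPM in WT and 38549 to 53869 CPM in KO libraries. Oligodendrocyte genes were also abundant, summing to 17173 to 25796 CPM in WT and 11629 to 23252 CPM in KO libraries. In such bulk samples, fewer cells of a type and less RNA per cell cannot be told apart.

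Of the 15571 genes tested, 983 (6.31%) differed between KO and WT on the ipsilateral side by edgeR's quasi-likelihood test at a Benjamini-Hochberg adjusted p of 0.05. Higher in KO were 675 genes (4.33%), which include genes of mature astrocytes, of the Notch pathway and of signals to vessels, and lower were 308 (1.98%), which include genes of choroid plexus and oligodendrocytes. In all, 457 genes (2.93%) passed and differed more than 2-fold, 293 upward (1.88%) and 164 downward (1.05%). The median log2 fold change of all genes tested was 0.02, and 52.1% of genes had a fitted value above 0. Libraries of the groups did not overlap for 2134 genes that were higher (13.7%) and 1580 that were lower (10.1%) in KO.

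The number of calls depended on single libraries. Without the WT library of mouse 297 only 65 genes passed, 46 higher and 19 lower, all 65 of them among the 983. Without the WT library of mouse 296 the count was 496, without that of mouse 474 it was 1168, and without the KO libraries of mice 295, 298 and 300 it was 518, 380 and 567. A fit of the 6 ipsilateral libraries alone, which estimates the spread from fewer samples, called 142 higher and 54 lower. The direction of the calls was less lopsided in a limma-trend fit of log2(TPM + 1), with 347 higher and 338 lower (50.7% higher, against 68.7% from the counts). For genes below, the number of fits passed out of 6 refers to the fits that each left out 1 ipsilateral library. Counts of calls in the lists below stand beside the 4.33% of all genes tested that were higher and the 1.98% that were lower. Some genes are on more than 1 list, so the lists are not independent of each other.

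**Figure D1:**
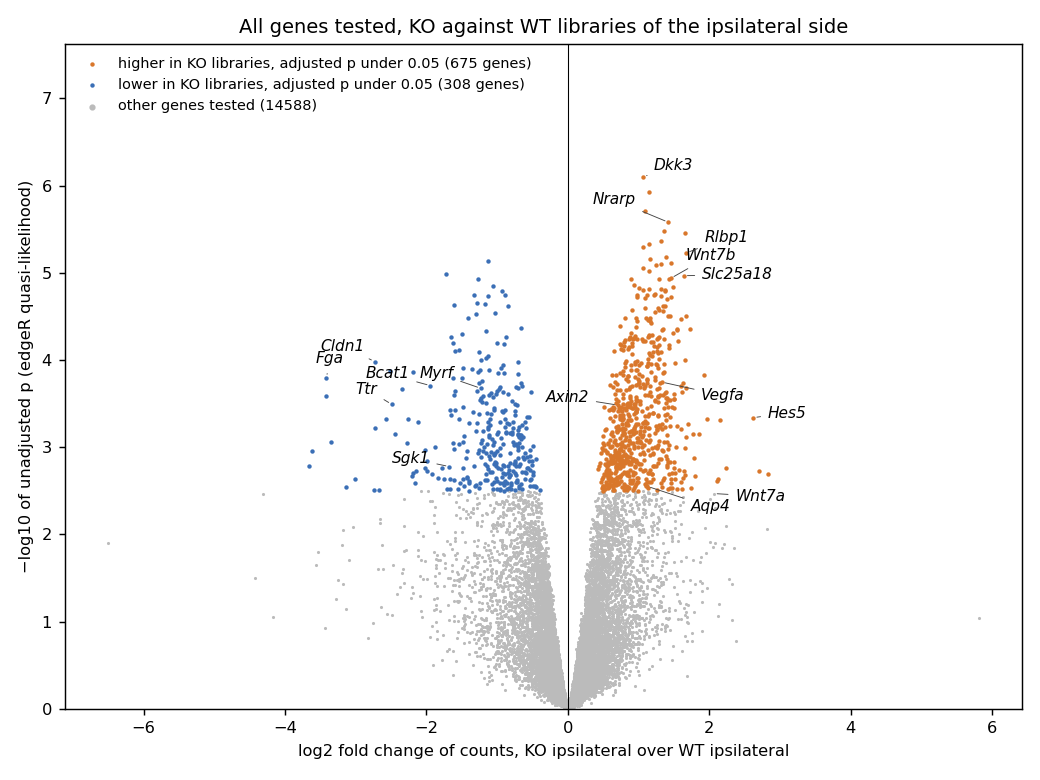
Each point is 1 of 15571 genes, with the log2 fold change of counts (KO over WT, ipsilateral, 3 libraries each) on the x axis and -log10 of the unadjusted edgeR p on the y axis. The 675 orange genes (higher) and 308 blue genes (lower) passed an adjusted p of 0.05, and the smallest p of a named gene belonged to Dkk3.

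The 15 largest rises among passing genes whose groups did not overlap and whose mean reached 2 log2 CPM had log2 fold changes of 1.61 to 2.63. Slc25a18, a mitochondrial glutamate carrier, was at 105, 110 and 145 CPM in WT and 331, 396 and 399 CPM in KO libraries. Every KO library was above every WT library, and the log2 fold change of 1.64 ± 0.23 (SE) passed with an adjusted p of 0.00659 by edgeR and in 6 of 6 fits. Rlbp1, a retinaldehyde-binding protein of glia, was at 10.6, 8.46 and 10.02 CPM against 28.9, 31.7 and 32.8 CPM, with a log2 fold change of 1.68 ± 0.22 and 6 of 6 fits passed. Trib2, a pseudokinase, rose by 1.73 ± 0.28 (adjusted p = 0.00864, edgeR), and passed in 5 of 6 fits, the exception being that without WT 297 (0.0565). Btbd17 rose by 1.97 ± 0.41, from 18.2, 36.2 and 39.9 CPM to 100.9, 152 and 117 CPM, but passed in 3 of 6 fits, missing the threshold without WT 296 (0.0602), WT 297 (0.0799) or KO 298 (0.0699).

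The other members of the 15 largest rises were Hes5, described with Notch, and Pdzph1, Tagln3, the microRNA host transcript Mir9-3hg, Fam163a, the NMDA receptor subunit Grin3a, the homeobox gene Dbx2, the AMPA receptor auxiliary subunit Cacng8, the collagen Col1a1, the sulfurtransferase Tst and the fucosyltransferase Fut9. Apart from Hes5, their log2 fold changes lay between 1.61 for Fut9 and 1.77 for Pdzph1. Pdzph1, Tagln3, Grin3a, Cacng8 and Fut9 passed in 1 of 6 fits, Fam163a in 2, Tst in 4, and Mir9-3hg, Dbx2 and Col1a1 in 5. Mir9-3hg overlaps 4 annotated genes, and the strand of counting is not given in the sources used here, so its reads may belong in part to a neighbour. The counts of Tst held 0.35 of the reads that its deposited RPKM implies.

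Genes of mature, resting astrocytes formed the list with the highest share of calls. Of 28 members tested, 23 rose, none fell and 5 did not pass, the median log2 fold change was 1.08 with a range of 0.39 to 1.60, and 26 members had KO libraries all above the WT libraries (13.7% of all genes tested). Aldoc, the aldolase of astrocytes, stood at 876, 1047 and 1113 CPM in WT and 2161, 3131 and 3604 CPM in KO libraries. Every KO library lay far above every WT library, and its log2 fold change was 1.55 ± 0.25 (adjusted p = 0.00864, edgeR). Acsbg1, an acyl-CoA synthetase, went from 336, 315 and 347 CPM to 624, 833 and 844 CPM (1.20 ± 0.20), and Cbs, which makes cystathionine, from 159, 132 and 134 CPM to 239, 336 and 329 CPM (1.09 ± 0.16). These 3 genes passed in 5 of 6 fits and missed the threshold without WT 297, with adjusted p of 0.0521, 0.0571 and 0.0519. The counts of Cbs held 0.45 of the reads implied by its RPKM.

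The list's count rested on the WT library of mouse 297 more than on any other. Without that library 1 of the 28 members rose, at a median of 1.03, and without the KO library of mouse 298 the count was 7, at a median of 0.84. It was 14 without WT 296, 21 without WT 474 or KO 295, and 12 without KO 300. In the fit of the 6 ipsilateral libraries alone, 9 rose. The mean level of the list was 8.51, 8.42 and 8.58 log2 CPM in WT and 9.27, 9.83 and 9.59 log2 CPM in KO libraries, which did not overlap (difference 1.06, two-sided exact permutation p = 0.1, the smallest that 3 against 3 libraries allow). Atp1b2, which encodes the ACSA-2 antigen of the sort and is itself a member, stood at 1299, 1230.2 and 1902 CPM in WT and 2432, 3652 and 2905 CPM in KO libraries. Its part in the other values of the list was not tested.

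Some genes of the endfoot and of transmitter uptake also rose. Of 14 endfoot genes 5 rose and none fell (median log2 fold change 0.65). Aqp4, the water channel of the endfoot, was at 189, 252 and 405 CPM in WT and 543, 776 and 524 CPM in KO libraries. Its groups did not overlap, but the WT library of mouse 474 lay near the KO libraries, and its log2 fold change of 1.12 ± 0.30 (adjusted p = 0.0469, edgeR) passed in 1 of 6 fits, that without WT 474, with adjusted p of 0.079 to 0.172 in the other 5. Mlc1, a membrane protein of the endfoot, and Dag1, the dystroglycan that binds the vessel's basement membrane, rose by 0.81 ± 0.15 and 0.65 ± 0.14.

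Of 17 genes of glutamate and GABA handling 9 rose and none fell (median 0.96). Slc6a11, a GABA transporter, was at 822, 466 and 805 CPM in WT and 1305, 2398 and 1799 CPM in KO libraries (1.39 ± 0.27, adjusted p = 0.0145, edgeR). Grin2c, an NMDA receptor subunit of astrocytes, rose by 1.15 ± 0.20, Glud1, the glutamate dehydrogenase, by 0.96 ± 0.17, and the kainate receptor subunit Grik5 by 0.81 ± 0.13. Without WT 297 none of the 17 passed and 1 of the 14 endfoot genes did, and without KO 298 the counts were 3 higher and 1 lower of the 17, and 2 of the 14. Of the 17, 5 rose without WT 296, and of the 14, 3 rose without KO 300.

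**Figure D2:**
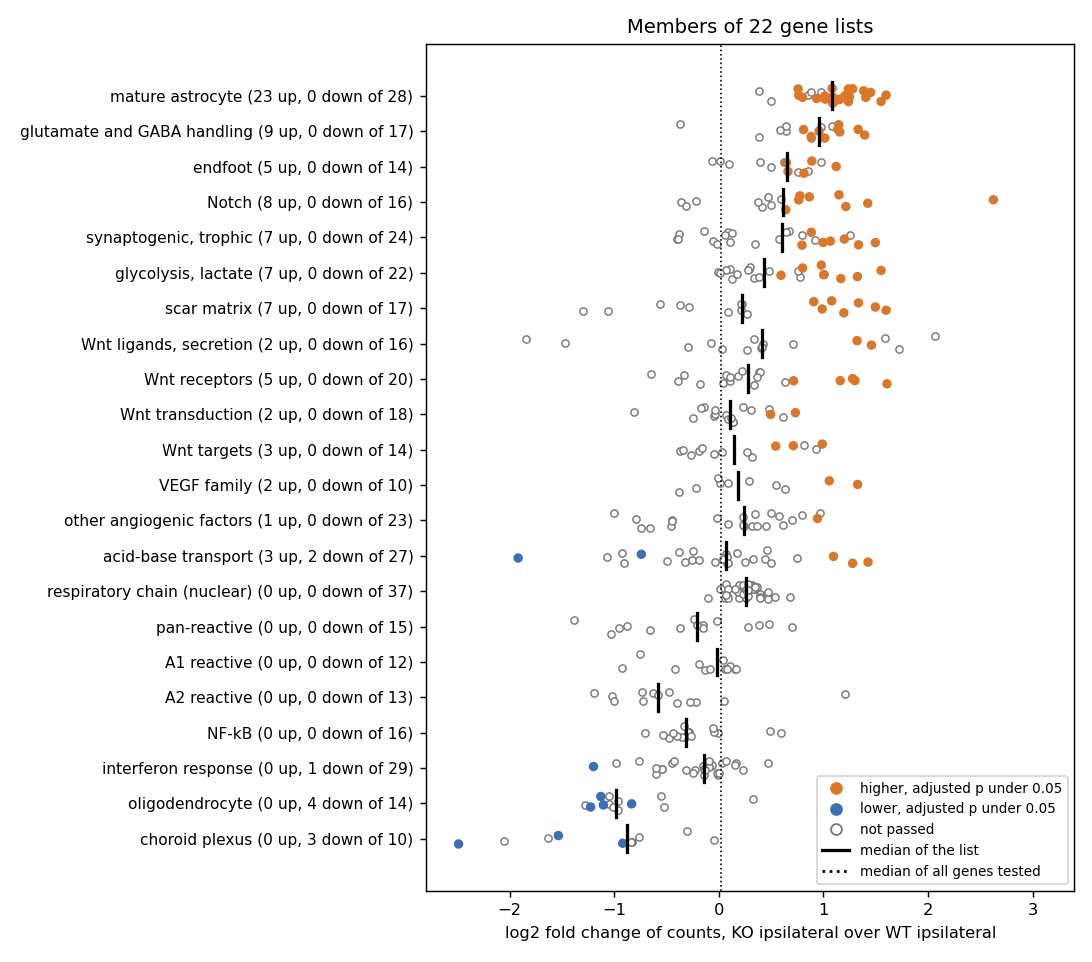
Points are the members of 22 gene lists, placed by log2 fold change of counts (KO over WT, ipsilateral); filled points passed an adjusted p of 0.05, bars mark each list's median and the dotted line the median of all genes tested (0.02). The mature astrocyte list lies wholly above 0 with a median of 1.08, whereas the oligodendrocyte and choroid plexus lists have medians of -0.99 and -0.88.

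Of 16 Notch pathway genes tested, 8 rose and none fell, at a median log2 fold change of 0.62. The promoter windows of 3 of them are shown because these genes answer Notch in many cells and rose together here. The windows are from RefSeq (build GRCm38.p6, which is mm10) and run 5′ to 3′ on the plus strand from 250 bases before the annotated start to 50 after it. Capitals mark GTGGGAA, the core letters bound by Rbpj, on either strand.
Hes5, chr4:154960673-154960972: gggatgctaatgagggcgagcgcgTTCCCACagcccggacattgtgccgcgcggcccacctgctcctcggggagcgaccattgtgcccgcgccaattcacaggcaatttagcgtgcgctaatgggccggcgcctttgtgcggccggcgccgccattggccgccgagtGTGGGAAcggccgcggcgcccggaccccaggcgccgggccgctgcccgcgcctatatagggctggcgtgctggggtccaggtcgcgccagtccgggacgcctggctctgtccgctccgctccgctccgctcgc
Lfng, chr5:140607091-140607390: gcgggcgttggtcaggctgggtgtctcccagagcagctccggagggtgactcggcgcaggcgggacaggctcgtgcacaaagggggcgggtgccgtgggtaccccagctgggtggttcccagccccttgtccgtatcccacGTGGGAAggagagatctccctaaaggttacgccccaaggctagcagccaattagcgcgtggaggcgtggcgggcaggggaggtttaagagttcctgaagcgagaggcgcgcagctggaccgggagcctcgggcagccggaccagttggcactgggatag
Nrarp, chr2:25180508-25180807: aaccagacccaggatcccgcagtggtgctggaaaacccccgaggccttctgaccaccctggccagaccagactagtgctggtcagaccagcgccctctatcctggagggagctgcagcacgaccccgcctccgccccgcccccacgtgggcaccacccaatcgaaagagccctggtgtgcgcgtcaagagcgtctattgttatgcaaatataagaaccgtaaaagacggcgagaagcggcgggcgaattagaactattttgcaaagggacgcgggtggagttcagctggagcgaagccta
The window of Hes5 held 2 matches, 1 on each strand, that of Lfng held 1, and that of Nrarp held 0. Of all 32851 RefSeq promoter windows of this length, 6.38% held at least 1. The 3 genes were chosen with their rise known. Windows were found for 13 of the 16 Notch genes, and matches in the others are not given. The share of 6.38% is therefore no test of enrichment. A match describes the letters in these windows and is not a measured binding site.

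Nrarp, a feedback inhibitor that Notch switches on, was at 44.3, 35.2 and 35.7 CPM in WT and 86.0, 125 and 98.2 CPM in KO libraries. The lowest KO library was far above the highest WT library, and the log2 fold change was 1.42 ± 0.17 (adjusted p = 0.00659, edgeR; 6 of 6 fits). Lfng, a glycosyltransferase that modifies Notch receptors, was at 174, 136 and 140 CPM against 289, 366 and 342 CPM (1.15 ± 0.16, 6 of 6 fits). Hes5, the repressor through which Notch acts in glia, was at 4.10, 6.04 and 15.2 CPM in WT and 53.3, 62.9 and 41.4 CPM in KO libraries. It had the largest rise of the genes named by rule, 2.63 ± 0.55 (adjusted p = 0.0190, edgeR), but passed in 3 of 6 fits, with adjusted p of 0.0608, 0.0983 and 0.0656 without WT 296, WT 297 and KO 298. Hes1 and Hey1, repressors of the same family, rose by 0.64 ± 0.13 and 0.86 ± 0.18, and passed in 3 and 2 of 6 fits. The number of Notch genes that rose was 2 without WT 297, 6 without WT 474, and 4 without each of the other 4 libraries.

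Among the Wnt ligands Wnt7b had the smallest p. It was at 47.0, 56.8 and 72.5 CPM in WT and 164, 161 and 159 CPM in KO libraries, so that the KO libraries lay close together and far above the WT ones. The log2 fold change was 1.46 ± 0.20 (adjusted p = 0.00659, edgeR), with adjusted p of 0.00896 to 0.0467 in the 6 fits. Wnt7a, the related ligand, was at 8.19, 14.1 and 23.1 CPM against 58.2, 76.1 and 56.1 CPM. Its groups did not overlap either and its fitted difference was larger, 2.06 ± 0.57, but it did not pass (adjusted p = 0.0517, edgeR; 1 of 6 fits, that without WT 474 at 0.0408; 0.0396 by limma-voom with the mouse as a block). Ndp, which encodes norrin, a non-Wnt ligand of a Frizzled receptor, was at 14.1, 18.8 and 21.6 CPM against 35.7, 55.4 and 45.1 CPM. It passed narrowly (1.32 ± 0.35, adjusted p = 0.0450, edgeR) and in none of the 6 fits, with adjusted p of 0.0533 without WT 474 and up to 0.145 without WT 296 or WT 297. These were the 2 ligand and secretion genes of 16 that passed (median 0.41), and 1 did without each library but WT 474, without which 3 rose and 1 fell. The median was 0.26 without WT 297.

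Of 20 Wnt receptor and co-receptor genes 5 rose and none fell (median 0.28). Fzd2, a Frizzled receptor, was at 51.0, 40.8 and 38.8 CPM in WT and 77.5, 122 and 92.1 CPM in KO libraries (1.16 ± 0.20, adjusted p = 0.00988, edgeR). It missed the threshold without WT 297 (0.0597). The R-spondin receptor Lgr6 rose by 1.30 ± 0.24, Fzd9 by 1.28 ± 0.29 and Tspan12, a co-receptor for norrin, by 0.71 ± 0.15. Lgr6, Fzd9 and Tspan12 passed in 5, 1 and 3 of 6 fits. Without WT 297 none of the 20 passed, and 2 did without WT 296 or KO 298.

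Further down the pathway, 2 of 18 transduction genes rose (median 0.10). These were Tcf7l2, a DNA-binding partner of β-catenin, by 0.73 ± 0.15, and the β-catenin co-activator Bcl9l by 0.50 ± 0.13, the latter at the threshold (adjusted p = 0.04998, edgeR; 2 of 6 fits; 0.0568 by limma-voom with the mouse as a block). None of the 18 passed without WT 297 or in the fit of the 6 ipsilateral libraries alone, 1 did without WT 296, KO 295, KO 298 or KO 300, and without WT 474, 3 rose and 1 fell. The median was -0.00535 without KO 300. Ctnnb1, which encodes β-catenin, stood at 539, 458 and 511 CPM in WT and 479, 426 and 564 CPM in KO libraries, with overlapping groups (-0.04 ± 0.14, adjusted p = 0.907, edgeR). Transcript levels do not measure the amount of stable β-catenin protein.

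Of 14 target genes of the pathway 3 rose and none fell (median 0.15). Axin2, a feedback inhibitor that β-catenin switches on in most tissues, was at 26.7, 23.03 and 33.6 CPM in WT and 49.6, 46.1 and 40.8 CPM in KO libraries. No library overlapped, and the log2 fold change was 0.71 ± 0.14 (adjusted p = 0.0167, edgeR). It passed in 2 of 6 fits, those without WT 474 and KO 300, with adjusted p of 0.055, 0.0829, 0.0601 and 0.0608 without WT 296, WT 297, KO 295 and KO 298. The ubiquitin ligase Znrf3, which removes Frizzled receptors, and the receptor Tnfrsf19 rose by 0.54 ± 0.13 and 0.99 ± 0.26. Znrf3 passed in 2 of 6 fits and Tnfrsf19 in 1. Lef1, at 20.6, 15.5 and 13.8 CPM against 20.5, 17.6 and 22.3 CPM, overlapped between the groups and did not pass (0.27 ± 0.19). None of the 14 passed without WT 297, KO 295 or KO 298, nor in the fit of the 6 ipsilateral libraries alone. The median was 0.36 without WT 296, 0.09 without WT 474 and -0.02 without KO 300.

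Among 14 secreted and membrane antagonists 1 rose, or 7.14% beside 4.33% of all genes tested that were higher. The median was 0.36 (0.12 without KO 295), and 2 rose without WT 474. Dkk3, a Dickkopf family member with a less settled role in Wnt signalling than its relatives, was at 127, 136 and 135 CPM in WT and 259, 286 and 291 CPM in KO libraries. Replicates agreed closely on both sides, and its log2 fold change of 1.07 ± 0.11 (adjusted p = 0.00659, edgeR; 6 of 6 fits) had the smallest p of all genes tested.

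**Figure D3:**
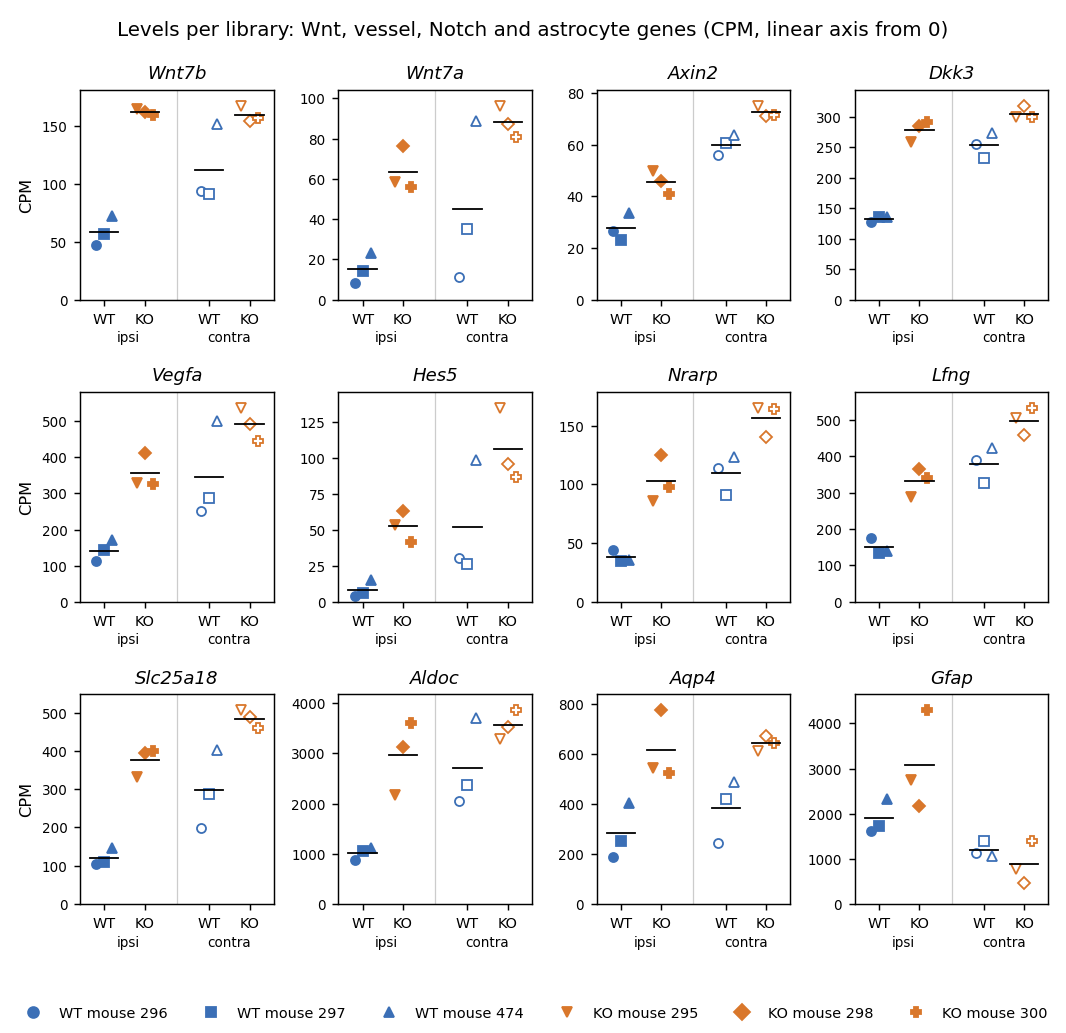
Levels in CPM (y axis, linear from 0) of 12 genes in each library, with the ipsilateral side filled and the contralateral side open, WT in blue, KO in orange, 1 symbol per mouse and bars at the mean of 3. On the ipsilateral side the KO libraries lie above the WT libraries in every panel but that of Gfap, for example 159 to 164 against 47.0 to 72.5 CPM for Wnt7b.

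Of the vessel growth factors, Vegfa, the main driver of vessel growth, was at 112, 142 and 171 CPM in WT and 328, 413 and 327 CPM in KO libraries. The groups did not overlap, and the log2 fold change was 1.33 ± 0.25 (adjusted p = 0.0133, edgeR; 4 of 6 fits, with 0.0681 without WT 297 and 0.0547 without KO 298). Vegfb, a family member with weaker vessel activity, was at 18.04, 22.7 and 28.5 CPM against 40.4, 43.5 and 60.4 CPM (1.06 ± 0.24, adjusted p = 0.0235, edgeR). They were the 2 of 10 VEGF ligands and receptors that passed (median 0.19). Without WT 297 or KO 298 neither passed, and without WT 296 or KO 300 only Vegfa did. Of 23 other angiogenic factors Angpt1, a ligand that steadies vessels, was the 1 that rose, by 0.94 ± 0.23 in the full fit and in 2 of 6 fits, those without WT 474 and KO 295. That is 4.35% of the list, beside 4.33% of all genes tested that were higher, and its median was 0.24 (0.11 without KO 300). Endothelial markers, of which 0 of 14 passed, averaged 6.97, 7.04 and 6.64 log2 CPM in WT and 7.02, 6.93 and 7.38 log2 CPM in KO libraries.

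Matrix and trophic genes rose in part. Of 17 scar matrix genes 7 rose and none fell (median 0.22), all of them proteoglycans or enzymes and proteins that act on them. Bcan, the proteoglycan brevican, was at 556, 435 and 442 CPM in WT and 971, 1495 and 1148 CPM in KO libraries (1.34 ± 0.21, adjusted p = 0.00864, edgeR). Ncan, neurocan, went from 129, 153 and 215 CPM to 516, 478 and 407 CPM (1.496 ± 0.295), Cspg5 rose by 1.60 ± 0.30 and Cspg4 by 0.99 ± 0.18. Cspg5 is also on the mature astrocyte list and Cspg4 on that of oligodendrocyte precursors, and the counts of Cspg4 held 0.68 of the reads implied by its RPKM. Of 24 synaptogenic and trophic genes 7 rose and none fell (median 0.61), among them the growth factors Ptn by 1.20 ± 0.21 and Mdk by 0.88 ± 0.15. Bcan is counted in this list too. Without WT 297 none of the 17 and none of the 24 passed, and without KO 298 the counts were 2 and 4. Of the 17, 3 rose without WT 296, and their median was 0.35 without it, 0.68 without WT 474 and 0.65 without KO 298. That of the 24 was 0.40 without KO 298.

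Of 22 genes of glycolysis and lactate 7 rose and none fell (median 0.43), Aldoc of the mature astrocyte list among them. Pfkm, a phosphofructokinase, was at 173, 178 and 206 CPM in WT and 362, 531 and 500 CPM in KO libraries (1.32 ± 0.19, adjusted p = 0.00659, edgeR; 6 of 6 fits). Pygb, which releases glucose from glycogen, rose by 1.17 ± 0.18 and the hexokinase Hk1 by 0.59 ± 0.11. Without WT 297, 1 of the 22 passed, and 4 did without KO 298 or KO 300. None of 37 nuclear genes of the respiratory chain passed (0 higher and 0 lower, also 0 by DESeq2; median 0.26), although 36 of them had a fitted value above 0 (52.1% of all genes). The 9 mitochondrially encoded genes had a median of 0.74, of which none passed by edgeR and 2 by DESeq2. mt-Nd1 was at 780, 805 and 696 CPM in WT and 784, 1158 and 2044 CPM in KO libraries, the highest in the libraries of mice 298 and 300, which also had the highest mitochondrial shares. Without KO 300 the medians of the 2 lists were 0.09 and 0.36, and without KO 295 that of the 9 genes was 1.01, with 5 of them passing.

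Ion transport genes differed in both directions. Of 22 genes of sodium, calcium and chloride transport 4 rose and 3 fell (median 0.19). Slc12a2, the sodium-potassium-chloride cotransporter that swells cells, was at 380.1, 441 and 317 CPM in WT and 168, 246 and 159.7 CPM in KO libraries, lower in every KO library (-0.99 ± 0.18, adjusted p = 0.0120, edgeR; without WT 297, 0.0644). The kinase that activates this cotransporter, Stk39, fell by 0.79 ± 0.17 on the log2 scale and passed in 2 of 6 fits. The counts of Slc12a2 held 0.60 of the reads implied by its RPKM. Choroid plexus and oligodendrocyte markers were also lower in KO libraries (list medians -0.88 and -0.99). The part of RNA of those cells in these falls was not tested. None of the 22 passed without WT 297, and the calls were 2 higher and 1 lower without WT 296 or KO 295, 1 and 1 without KO 298, and 1 and 2 without KO 300. The median was 0.11 without KO 295 and -0.02 without KO 300.

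Of 27 acid-base genes tested, 3 rose and 2 fell (median 0.07). Slc4a4, among those that rose, is also on the mature astrocyte list. The sodium-bicarbonate cotransporter Slc4a4 was at 348, 289 and 433 CPM in WT and 633, 1209 and 755 CPM in KO libraries (1.28 ± 0.25, adjusted p = 0.0152, edgeR; 4 of 6 fits, with 0.0829 without WT 297 and 0.0521 without KO 298). Slc9a3r1, a scaffold protein of membrane transporters, rose by 1.10 ± 0.16 in 6 of 6 fits. Car8, a catalytically inactive member of the carbonic anhydrase family, rose by 1.43 ± 0.33 and passed in 1 of 6 fits. The carbonic anhydrases Car12 and Car14 fell by 1.92 ± 0.49 and 0.74 ± 0.18 on the log2 scale. Neither passed by limma-voom with the mouse as a block (adjusted p = 0.0937 and 0.0551). Car14 passed in 2 of 6 fits, and was lower on the contralateral side too (-1.21, adjusted p = 0.0112, edgeR). As for Slc12a2, the part of RNA of other cells in both falls was not tested. For Car12, which passed in 1 of 6 fits (that without WT 474), the values were 29.8, 34.5 and 25.4 CPM against 6.22, 11.96 and 5.35 CPM. The calls were 3 higher and none lower without WT 296, 1 and 0 without WT 297, 4 and 3 without WT 474, 2 and 0 without KO 295 or KO 300, and 1 and 1 without KO 298. The median was -0.04, -0.05 and -0.08 without WT 296, KO 295 and KO 298.

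The 15 largest falls, chosen in the same way, included genes of the choroid plexus, the tissue that makes cerebrospinal fluid. Ttr, the plexus transport protein for thyroid hormone, was at 5750.2, 3217 and 2260.3 CPM in WT and 537, 1052 and 411 CPM in KO libraries. The groups did not overlap, and its log2 fold change was -2.49 ± 0.50 (adjusted p = 0.0164, edgeR; 3 of 6 fits, with 0.0597, 0.0607 and 0.0528 without WT 297, KO 295 and KO 300). Enpp2, autotaxin, was at 1841, 1740.5 and 1357 CPM against 483, 840.4 and 380.5 CPM (-1.53 ± 0.35), and the folate receptor Folr1 fell by 0.92 ± 0.21. These were the 3 of 10 choroid plexus markers that passed (median -0.88). All 10 were fitted below 0, whereas 52.1% of all genes tested were fitted above 0. The bicarbonate cotransporter Slc4a5, also known from the plexus and not on the list, fell by 2.02 ± 0.47 and was among the 15 largest falls. By limma-voom with the mouse as a block Folr1 and Slc4a5 did not pass (adjusted p = 0.0753 and 0.0790). Enpp2 and Slc4a5 passed in 2 of 6 fits and Folr1 in 1. Summed choroid plexus markers were at 7816, 5137 and 4020 CPM in WT and 1174, 2034 and 816 CPM in KO libraries, most of it Ttr and Enpp2. The mean level of the 10 markers, which weighs each alike, was lower as well. It was 5.56, 5.41 and 5.37 log2 CPM in WT and 4.14, 4.85 and 3.75 log2 CPM in KO libraries (difference -1.20, two-sided exact permutation p = 0.1). None of the 10 passed without WT 297, KO 295 or KO 300, and 1 did without WT 296. Without KO 298 the median was -1.38. On the contralateral side it was -1.51, and 2 of the 10 passed as lower. How much of the other differences such RNA of other cells carried was not tested.

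Myelin genes were lower for part of their list. Of 14 oligodendrocyte markers 4 fell and none rose (median -0.99). Myrf, the transcription factor of myelination, was at 793, 999 and 589 CPM in WT and 339, 324 and 354 CPM in KO libraries (-1.23 ± 0.23, adjusted p = 0.0140, edgeR; 4 of 6 fits, with 0.0726 without WT 297 and 0.0521 without KO 298). Mal, a membrane protein of myelin, was at 2149, 2148 and 1182 CPM against 678, 1003 and 868 CPM (-1.10 ± 0.24, 2 of 6 fits). Cnp, an enzyme of myelin, fell by 0.83 ± 0.22 and passed in 1 of 6 fits (adjusted p = 0.0723 by limma-voom with the mouse as a block). Mbp, chosen after its values were seen, lay above every WT library in the KO libraries of mice 295 and 300 and below them in that of mouse 298. It was at 2717, 2779.8 and 2514 CPM in WT and 3032, 1891 and 12264 CPM in KO libraries, the last that of mouse 300. Of the 14 markers 12 were fitted below 0 and 2 above. Mean oligodendrocyte levels were 9.01, 9.78 and 9.18 log2 CPM in WT and 8.43, 8.52 and 8.80 log2 CPM in KO libraries (difference -0.74, two-sided exact permutation p = 0.1). Without WT 297 none of the 14 passed and their median was -0.66, 1 did without KO 295 or KO 300, and 2 did without WT 296 or KO 298. On the contralateral side the median was -1.39, and 6 of the 14 passed as lower.

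**Figure D4:**
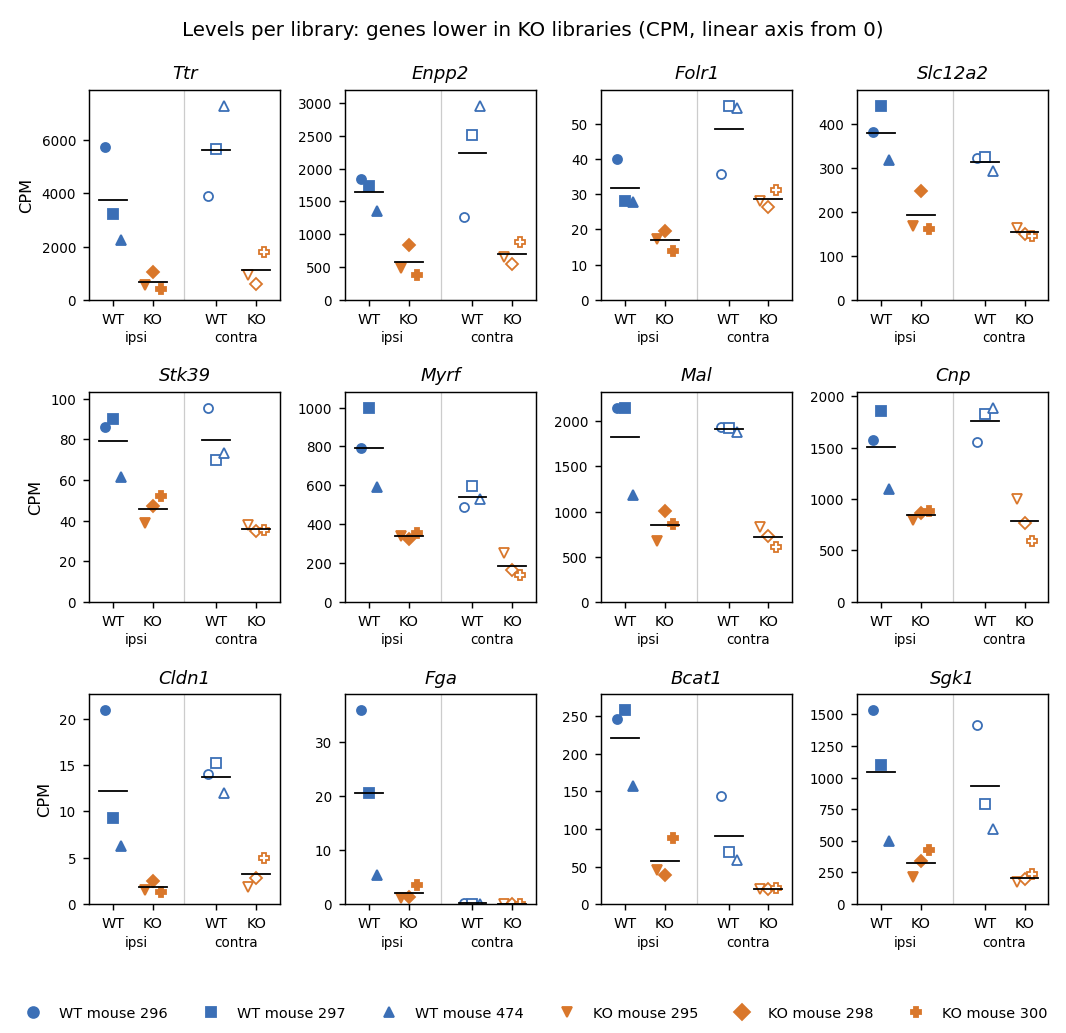
Levels in CPM (y axis, linear from 0) of 12 genes that were lower in KO libraries, drawn as for the genes that were higher (ipsilateral filled, contralateral open, WT in blue, KO in orange, bars at the mean of 3). Every ipsilateral KO library lies below every WT one in each panel, for example 324 to 354 against 589 to 999 CPM for Myrf, and Fga is near 0 on the contralateral side.

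Other large falls did not all belong to 1 list, and Sgk1, the last of those below, was not among the 15 largest. Cldn1, a tight junction protein, was at 20.96, 9.34 and 6.28 CPM in WT and 1.56, 2.53 and 1.34 CPM in KO libraries (-2.73 ± 0.48, adjusted p = 0.0109, edgeR), and was the 1 of the 15 largest falls to pass in 6 of 6 fits. Fga, the fibrinogen α chain, was at 35.8, 20.5 and 5.43 CPM against 1.11, 1.34 and 3.44 CPM (-3.41 ± 0.63, the largest of the 15; 4 of 6 fits, with 0.0571 without WT 297 and 0.0531 without KO 298; 0.0508 by limma-voom with the mouse as a block). Bcat1, a branched-chain aminotransferase, was at 246, 258 and 158 CPM against 46.0, 38.5 and 88.3 CPM (-1.94 ± 0.37), and missed the threshold without WT 297 (0.0655). Sgk1, a kinase that glucocorticoids induce, was at 1533, 1097 and 500.15 CPM against 211, 342 and 428 CPM (-1.67 ± 0.41, adjusted p = 0.0349, edgeR; 1 of 6 fits, that without WT 474). It was the 1 of 17 glucocorticoid-responsive genes that passed (5.88%, beside 1.98% of all genes tested that were lower). The list median was -0.92. Of the 17, 15 were fitted below 0, whereas 52.1% of all genes tested were fitted above 0. Without WT 474, 4 of the 17 fell, none passed without any other single library, and without WT 296 the median was -0.31 (3 fell in the limma-voom fit with the mouse as a block). The counts of Cldn1 held 0.67 and those of Enpp2 and Car12 0.60 of the reads implied by their RPKM.

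The remaining large falls were Slc7a14, the cytokine receptor subunit Il12rb1, Wdr86, the secreted protein Wfdc2, C1ql3, the proteoglycan Spock1, Mfrp, the RNA polymerase subunit Polr3e and Arfgef3. Their log2 fold changes ran from -2.34 for Slc7a14 to -1.77 for Arfgef3. Slc7a14 and Wfdc2 passed in 5 of 6 fits, Il12rb1 and Mfrp in 2, and Wdr86, C1ql3 and Arfgef3 in 1. In several the WT library of mouse 296 was highest, as for Spock1 at 356, 163 and 100.1 CPM in WT against 33.3, 71.3 and 48.6 CPM in KO libraries, and Polr3e at 378, 153 and 73.9 CPM against 54.6, 54.3 and 60.5 CPM. Spock1 and Polr3e passed in 1 of 6 fits each, that without WT 474, and without WT 296 their adjusted p were 0.118 and 0.136 by edgeR.

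Genes of the reactive and inflammatory states mostly did not pass. Of the pan-reactive, A1 and A2 lists (15, 12 and 13 genes) none passed by edgeR, and 1, 0 and 1 did so by DESeq2, with medians of -0.21, -0.02 and -0.59. These medians rested on single libraries: the pan-reactive one was -0.07 without KO 298, -0.11 without WT 474 and -0.53 without KO 300, that of A1 ran from -0.14 without WT 297 to 0.10 without WT 474, and that of A2 was -0.19 without WT 296. Without WT 474, 1 pan-reactive gene fell. Gfap, the intermediate filament of reactive astrocytes, whose promoter drives the recombinase, was at 1629, 1739.6 and 2317 CPM in WT and 2752, 2177 and 4296 CPM in KO libraries. The groups overlapped (0.70 ± 0.35, adjusted p = 0.282, edgeR). Lcn2, a secreted protein of reactive astrocytes, was at 575, 333 and 119 CPM against 91.2, 135 and 275 CPM, with a wide error (-1.03 ± 0.998, adjusted p = 0.599). Synm, the filament protein synemin, had the smallest p of the pan-reactive list (-1.38 ± 0.42, adjusted p = 0.0742), with its highest level in WT 296 at 539 CPM. None of 16 NF-κB genes passed (median -0.31, and -0.00288 without WT 296). Of 29 interferon-response genes 1 fell (3.45%, beside 1.98% of all genes tested that were lower). This was Xaf1, which fell by 1.20 ± 0.26 on the log2 scale and passed in 2 of 6 fits. Neutrophil markers averaged 3.66 log2 CPM in the WT library of mouse 296 and 0.44 to 1.92 log2 CPM in the other 5.

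Markers of other cells were spread unevenly over libraries. Microglial genes averaged 5.65, 6.15 and 5.77 log2 CPM in WT and 7.02, 6.49 and 4.37 log2 CPM in KO libraries, the last that of mouse 300, and none of 13 passed by edgeR, although 2 rose without KO 300. Of 11 mural cell markers 4 rose and none fell (median 0.50), led by Higd1b at 4.41, 4.75 and 4.45 CPM in WT and 13.6, 10.8 and 10.4 CPM in KO libraries (1.35 ± 0.21, 6 of 6 fits) and by Vtn, Rgs5 and Abcc9, which rose by 1.25, 0.71 and 0.92. Vtn and Rgs5 passed in 5 of 6 fits and Abcc9 in 1. Without WT 297, 1 of the 11 mural markers passed. Of 10 fibroblast markers Col1a1 rose, from 12.4, 12.6 and 16.4 CPM to 66.7, 29.3 and 32.8 CPM. No gene of the plotted marker lists lacked counts over the 6 libraries, and none of 10 lymphocyte markers had enough counts to be tested. What part these cells had in the differences was not tested.

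**Figure D5:**
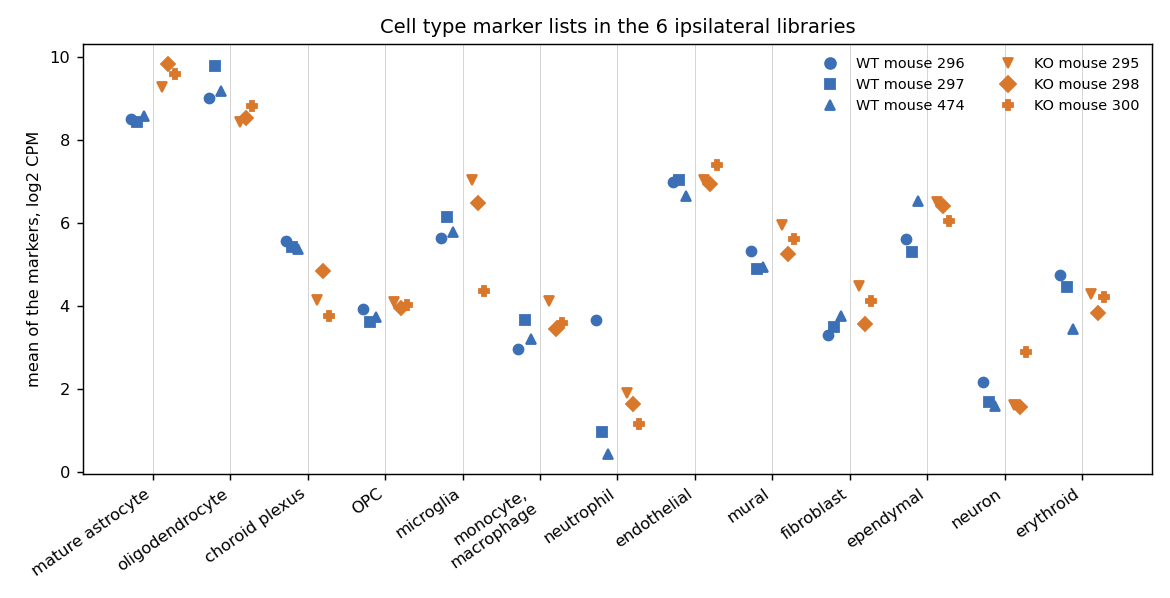
Mean level of each marker list (y axis, log2 CPM) in the 6 ipsilateral libraries, with WT in blue, KO in orange and 1 symbol per mouse. The mature astrocyte list is higher in all KO libraries and the choroid plexus and oligodendrocyte lists are lower, whereas microglial markers are lowest in KO 300 (4.37) and neutrophil markers highest in WT 296 (3.66).

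The contralateral side gave the same comparison in the same mice. There 233 genes passed (1.50%), 13 higher (0.0835%) and 220 lower (1.41%). This count too rested on single libraries: no gene passed without the contralateral KO library of mouse 298 or 300, 55 passed without the contralateral WT library of mouse 297, and 127 without the KO library of mouse 295. The 675 genes that rose on the ipsilateral side had a median log2 fold change of 0.95 there, by which they were chosen, and of 0.40 on the contralateral side, where 4 of them passed. For the 308 that fell the medians were -1.03 and -1.02, and 141 passed on both sides. On the contralateral side 648 of the 675 were also fitted above 0 and 301 of the 308 below 0. The median of all genes tested there was -0.00158. The test of the difference between sides took the 2 libraries of a mouse as independent. It found 0 genes at an adjusted p of 0.05 by edgeR (763 at an unadjusted p of 0.05, or 4.90%). It found 0 by limma-voom, with and without the mouse as a block, and 13 by DESeq2, so edgeR showed no difference to be particular to the ipsilateral side.

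Levels on the contralateral side differed between the 2 sets of genes. Wnt7b was at 93.2, 91.4 and 151 CPM in contralateral WT libraries and 167, 154 and 157 CPM in KO ones (0.51, adjusted p = 0.275, edgeR), and Vegfa at 251, 288 and 500.01 CPM against 537, 492 and 445 CPM (0.50, adjusted p = 0.378). In both the WT library of mouse 474 lay within or near the KO range. Nrarp was at 114, 91.0 and 123 CPM against 165, 140.3 and 164 CPM, and mature astrocyte genes had a median of 0.41 with none of 28 passing. Myrf, in contrast, was at 490, 597 and 528 CPM against 251, 162 and 138 CPM (-1.55, adjusted p = 0.0112, edgeR), and Slc12a2 at 322, 325 and 291 CPM against 164, 149.6 and 144 CPM (-1.04, adjusted p = 0.0168). Cldn1 was lower on both sides as well (-2.08 contralaterally, adjusted p = 0.0460, edgeR).

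The smallest p of the difference between sides belonged to Lyve1, a receptor of lymphatic vessels and of macrophages at brain borders. It was at 30.6, 42.6 and 25.4 CPM in ipsilateral WT and 9.18, 11.6 and 20.4 CPM in ipsilateral KO libraries. On the contralateral side it was at 4.17, 4.21 and 5.70 CPM in WT and 14.1, 9.70 and 10.4 CPM in KO libraries, the opposite order. The difference of the differences was -2.54 on the log2 scale (unadjusted p = 7.74e-05, adjusted p = 0.948, edgeR). The ipsilateral fall alone was -1.26 ± 0.30 (adjusted p = 0.0294, edgeR), and it passed in 2 of 6 fits, those without WT 474 and KO 300. Lyve1 was the 1 of 12 monocyte and macrophage markers that passed there. The list went mostly the other way, with 10 of the 12 fitted above 0 (52.1% of all genes tested). Its median was 0.57 on the ipsilateral and 1.25 on the contralateral side. Fbxo2, a ubiquitin ligase subunit that binds glycoproteins, was at 67.5, 75.0 and 72.8 CPM in ipsilateral WT and 157, 136 and 183 CPM in ipsilateral KO libraries (1.14 ± 0.15, 6 of 6 fits of that side), and its contralateral difference was 0.04. Its difference between sides, by whose small p it was chosen, did not pass (1.10, unadjusted p = 0.000163, adjusted p = 0.948, edgeR).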

How the data were processed

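RNA of ACSA-2+ cells was prepared with the Adult Brain Dissociation Kit and sequenced on an Illumina HiSeq instrument, per the labels' protocols. The authors deposited 1 table per library with read counts, TPM and RPKM for each gene. The counts are whole numbers that sum to different totals and were used as deposited. The deposited TPM, scaled for length and summing to 1000000 per library, served for an alternative fit and a marker check. The deposited RPKM were used to compare each gene's counts with the reads they imply. Reads were placed on mm10, per the submitters' processing notes. Aligner, counting tool and strand: not given in the sources used here.

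Groups came from the titles. Counts were fitted in R 4.3.3 with edgeR 4.0.16 (filterByExpr with a minimum count of 10, TMM, robust quasi-likelihood) over all 12 libraries with 1 term per group (8 residual degrees of freedom). Benjamini-Hochberg adjustment ran over 15571 genes, with calls at 0.05. SEs are the fold change divided by the square root of F. Log2 CPM used a prior count of 2. The mice are numbered, so p-values of KO against WT measure the spread between mice within this 1 experiment, pooled over the 4 groups. The fit took the 2 libraries of a mouse as independent, although their consensus correlation was 0.3615 by limma-voom. This may overstate the degrees of freedom, and the test of the difference between sides did not use the pairing of sides. KO and WT are different mice, hence unpaired. The floor of 3 counts covers counting error only.

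Named genes were Gfap, Aqp4, Lcn2, Vegfa, Ctnnb1, Lef1, Axin2, Wnt7b and Wnt7a, the 15 largest rises and 15 largest falls among passing genes with non-overlapping groups and a mean of at least 2 log2 CPM (without pseudogenes and unnamed gene models), from each list the 4 genes of smallest p or, where none passed, 2, and genes the check of samples or of sides needed. The extent of the deletion and some genes this rule picked are not reported here. The members, gene lists and tests were chosen with earlier results of these data known. Gene positions were found for 48349 of 48709 genes in GENCODE M21. Alternatives were DESeq2 1.42.0, limma-voom (limma 3.58.1) with and without the mouse as a block, other scalings and filters, the 6 libraries alone, log2(TPM + 1) and log2(TPM + 0.1), and each library left out in turn. The fitting code was tested on simulated data.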

Additional observations from a re-analysis of the deposited data

How the results depend on the processing

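The 983 ipsilateral calls became 1756 with DESeq2 and 196 in the fit of the 6 ipsilateral libraries alone, and ranged from 65 to 1323 when 1 of the 12 libraries was left out. With the mouse as a replicate block across the sides (limma-voom, consensus correlation 0.3615) 945 genes passed, 859 of them among the 983. KO and WT mice are different animals, so the block pairs the sides and not the groups. Of the 88 passing genes named, 12 did not pass with this block (9 in limma-voom without it): Car12, Car14, Bcl9l, Folr1, Slc4a5, Cnp, Fga, and Grin3a, Wdr86, Mfrp, Polr3e and Arfgef3, the last 5 with adjusted p of 0.0583, 0.111, 0.0628, 0.0501 and 0.0508. The gene lists held 111 calls together (100 higher and 11 lower), 167 with DESeq2 and 36 in the fit of 6 libraries, and 8 to 133 with 1 library left out. The 233 contralateral calls became 656 with DESeq2 and ranged from 0 to 288 with 1 library left out. The difference between sides gave 13 genes with DESeq2 and 0 in each fit that left out 1 library. Of the 88 passing genes named, 11 still passed without WT 297, 39 with 6 libraries and 88 with DESeq2. The mean of oligodendrocyte precursor markers differed by 0.26 in log2 CPM and by 0.13 in log2(TPM + 1). Ctnnb1 did not pass, and with 1 library left out its log2 fold change ran from -0.17 without KO 300 to 0.0412 without KO 298, with 0.02 without WT 296 and 0.000433 without WT 474. That of Xist ran from -0.26 without WT 296, with -0.16 without KO 298, to 0.82 without WT 297. That of Mbp ran from -0.14 without KO 300 to 1.50 without KO 298. The cause of these changes was not tested. With 3 libraries a group, an exact permutation test cannot go below 0.1.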
